A study of Mus musculus with 12 samples.

Results

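Elastic fibres give extensible tissues their recoil, and in skeletal muscle they lie in the connective tissue around fibres, fascicles and vessels and in the tendon. The 10 genes described here code for parts of these fibres and for an enzyme that makes them: *Eln*, *Fbn1*, *Fbn2*, *Fbln1*, *Fbln2*, *Fbln5*, *Emilin1*, *Mfap4*, *Mfap5* and *Lox*. They were taken by symbol, each symbol was matched to its Ensembl gene in the count table, and all 10 of the 10 were found among the 55450 genes. RNA came from tibialis anterior (TA) muscles of WT mice on the 129Pas background, taken before birth at embryonic day E18.5 and after it at 2 weeks (wks) and 7 wks; each age had 4 mice, with a library apiece. All mice were WT and the labels list no treatment, so age is the difference that they give between the groups. Each library is a pool of the transcripts of all cells of a muscle piece, so fewer cells of a type and less RNA per cell cannot be told apart.

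Cells secrete tropoelastin, the product of *Eln*, onto a scaffold of microfibrils built from the fibrillins. Fibulins, EMILINs and microfibril-associated proteins bind tropoelastin, the fibrillins or both and help place one on the other, and lysyl oxidases then cross-link the tropoelastin into insoluble elastin. In most tissues elastin is made mainly around birth and in early life, and the finished fibres turn over slowly. *Fbn2* is best known as a fibrillin of embryonic tissue and *Fbn1* as the main fibrillin of the adult.

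RefSeq promoter windows were at hand for 5 of the 10 genes, as 7 windows of the 250 bases before an annotated start. One window is shown for each set of calls that the genes had, as described further on: *Fbn1* was called lower to 2 wks, *Emilin1* from 2 to 7 wks and *Fbln5* in both intervals, and *Fbln2* passed the test in neither. Each reads 5′ to 3′ on the strand of the gene, with matches to the searched motifs in capitals, on build GRCm38.p6. The *Fbn1* window is chr2:125506439-125506688 on the minus strand, that of *Emilin1* is chr5:30913536-30913785 on the plus strand, that of *Fbln5* is chr12:101819120-101819369 on the minus strand, and that of *Fbln2* is chr6:91212514-91212763 on the plus strand.
Fbn1: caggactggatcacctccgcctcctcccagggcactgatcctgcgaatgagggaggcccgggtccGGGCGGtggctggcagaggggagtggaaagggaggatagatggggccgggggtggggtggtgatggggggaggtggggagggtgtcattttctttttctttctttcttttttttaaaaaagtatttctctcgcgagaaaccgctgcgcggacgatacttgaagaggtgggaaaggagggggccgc
Emilin1: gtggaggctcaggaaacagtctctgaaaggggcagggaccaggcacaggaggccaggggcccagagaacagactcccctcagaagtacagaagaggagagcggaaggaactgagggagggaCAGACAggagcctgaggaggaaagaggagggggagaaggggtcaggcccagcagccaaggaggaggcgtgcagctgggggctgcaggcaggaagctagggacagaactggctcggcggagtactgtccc
Fbln5: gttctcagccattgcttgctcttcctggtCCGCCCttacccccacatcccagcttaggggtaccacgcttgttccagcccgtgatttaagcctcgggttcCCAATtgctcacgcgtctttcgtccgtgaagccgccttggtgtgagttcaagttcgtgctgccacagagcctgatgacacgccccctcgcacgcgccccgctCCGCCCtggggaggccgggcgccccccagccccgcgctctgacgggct
Fbln2: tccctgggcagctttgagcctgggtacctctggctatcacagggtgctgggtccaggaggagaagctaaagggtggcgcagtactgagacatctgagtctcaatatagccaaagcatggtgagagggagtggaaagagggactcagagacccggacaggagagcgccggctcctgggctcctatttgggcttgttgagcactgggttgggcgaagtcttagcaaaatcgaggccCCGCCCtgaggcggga
The motifs searched, on both strands, were the TATA box (TATAAA), the CCAAT box (CCAAT), the GC box (GGGCGG), the AP-1 site (TGACTCA) and the SMAD letters CAGACA. In the windows shown, the capitals mark 1 GC box in *Fbn1*, the SMAD letters in *Emilin1*, 1 CCAAT box and 2 GC boxes in *Fbln5*, and 1 GC box in *Fbln2*. Of all 32851 windows of the same length, 32.7% held a GC box, 33.8% a CCAAT box, 17.1% the SMAD letters, 12.4% a TATA box and 4.46% an AP-1 site. Neither the TATA box nor the AP-1 site was matched in any of the 7 windows. A match is a string of letters and was not tested as a binding site.

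Library totals ran from 63018968 to 123449246 counts. Values are given as CPM, the count relative to the library's total after scaling by trimmed mean of M-values (TMM), a factor per library that centres the fold changes of most genes on 0. The muscle identity of the pieces was checked on 6 fibre genes, whose CPM summed to 11676 to 20718 in the libraries of E18.5, to between 146671 and 170722 in those of 2 wks, and to between 152375 and 181940 in those of 7 wks. The 6 were *Acta1*, *Ckm*, *Mylpf*, *Tnnt3*, *Ttn* and *Myh4*, each higher in every library of 2 wks than in any of E18.5. *Myh4* alone lay between 26.2 and 46.7 CPM at E18.5 and between 27826 and 45976 CPM at 2 wks. Other fibre genes were not summed, and scaled CPM are not shares of the counts. The scaling mattered at 2 wks versus E18.5. There the median over all tested genes was -0.09 on the log2 scale with TMM and -1.02 with the total count as the scale. The 8 fibroblast markers summed to 543 to 803 CPM before birth, and to between 197 and 341 CPM at 2 wks and between 107 and 264 CPM at 7 wks. They moved with several of the genes below, and their part in those results was not tested. E18.5 replicate 2 and 7 wks replicate 1 stood apart from the other libraries of their ages, as described with the spread among mice. Several results that change without them are given with and without. Without E18.5 replicate 2, 6 results of the elastic fibre genes gained a call, and only some of these are given gene by gene.

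Most of the elastic fibre genes were lower in older muscle, but not at the same time. At 2 wks versus E18.5, 5 of the 10 fell, namely *Fbn1*, *Fbn2*, *Fbln1*, *Fbln5* and *Lox*, and none rose. By the quasi-likelihood test of edgeR with Benjamini-Hochberg adjustment, 65.7% of the 19276 genes tested passed the threshold of 0.05 in that comparison, 34.2% of the 19276 as lower. From 2 to 7 wks 6 fell, *Eln*, *Fbn2*, *Fbln5*, *Emilin1*, *Mfap4* and *Mfap5*, and again none rose, against 27.5% of all genes called and 13.9% called lower. At 7 wks versus E18.5 9 had fallen, every gene but *Fbln2*, where 71.4% of all genes were called and 37.1% were lower. None of the 10 was higher in any of the 3 comparisons by edgeR at an unadjusted p below 0.05 either, nor by DESeq2 (0 in each). For the 10 genes the log2 fold changes had a median of -0.62 to 2 wks, -1.33 from 2 to 7 wks and -2.11 over the whole span, and for all tested genes of -0.09, -0.03 and -0.09. Read from the libraries alone, every library of the later age lay below every library of the earlier one for 5 of the 10 genes to 2 wks, 7 from 2 to 7 wks and 9 over the whole span, which held for 32.4%, 16.4% and 33.3% of all genes.

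The split by interval put 4 genes, *Eln*, *Emilin1*, *Mfap4* and *Mfap5*, among those with no call before 2 wks and a fall after it, a course taken by 4.44% of all tested genes. The 3 genes *Fbn1*, *Fbln1* and *Lox* fell before 2 wks with no call after it, as did 24.9% of all genes. *Fbn2* and *Fbln5* fell in both intervals (6.79% of all genes), and *Fbln2* passed in neither (24.8%). A call in 1 interval only does not show that the intervals differ, so a contrast of the earlier minus the later change was tested as well. It passed for 4 of the 10 genes, against 38.4% of all genes: the later change was the more negative for *Eln*, *Emilin1* and *Mfap4* (21.6% of all genes), and the earlier one for *Fbn2* (16.8%). Scaling the libraries to the 8 fibroblast markers instead of TMM moved the median of all genes to 1.26, 0.80 and 2.09, and the 10 genes then gave 5 higher and 2 lower calls to 2 wks, 0 higher and 4 lower calls from 2 to 7 wks, and 1 higher and 3 lower calls over the whole span. Of all 19276 genes, 12110 were then higher and 1455 lower to 2 wks, and 7876 higher and 639 lower from 2 to 7 wks. Over the whole span 14396 were higher and 1589 lower. Under that scaling the falls of *Fbn1* (-0.01) and *Fbln1* (-0.41) to 2 wks and of *Emilin1* (-1.01) from 2 to 7 wks were no longer called.

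**Figure D1:**
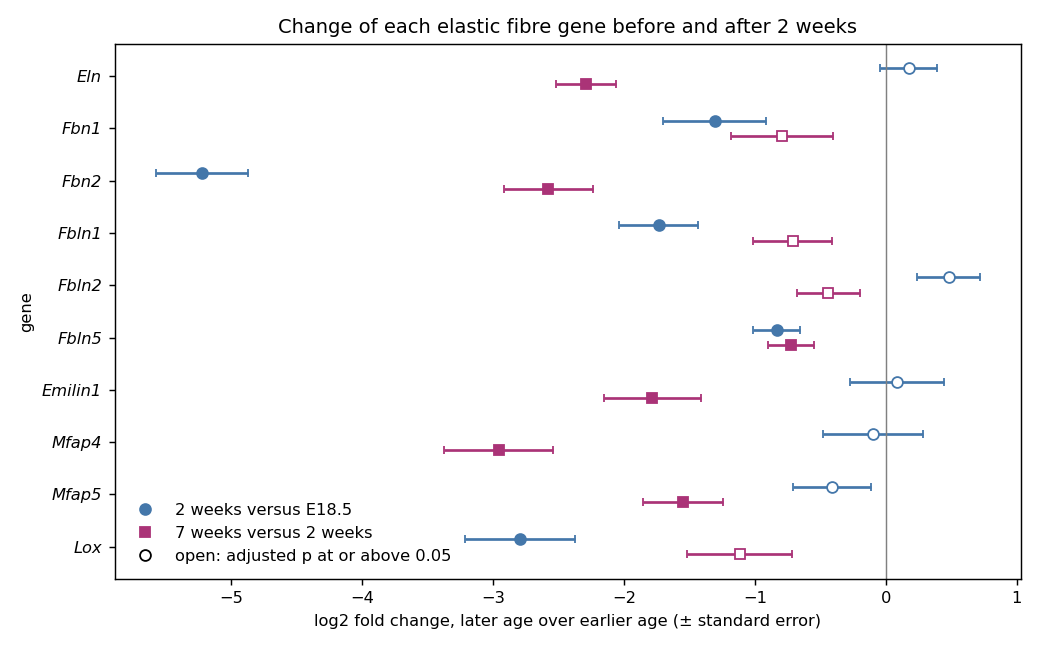
Log2 fold change of each of the 10 genes, later age over earlier age, with its standard error from the edgeR fit of all 12 libraries. Circles are 2 weeks versus E18.5 and squares 7 weeks versus 2 weeks, filled where the adjusted p was below 0.05. *Eln*, *Emilin1*, *Mfap4* and *Mfap5* have an open circle near 0 and a filled square well below it, and *Fbn2* has the circle farthest from 0, at -5.22.

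*Eln* codes for tropoelastin, the monomer of the elastic core. Its level was 159.8, 332, 235 and 220.1 CPM in the 4 libraries of E18.5, 326, 285, 187 and 272 CPM at 2 wks, and 45.0, 59.0, 59.7 and 55.4 CPM at 7 wks. The first 2 ages overlapped, and every library of 7 wks lay below every library of both earlier ages. The log2 fold change was 0.17 (SE 0.22, edgeR adjusted p = 0.499) to 2 wks and -2.29 (SE 0.23, edgeR adjusted p = 2.74e-05) from 2 to 7 wks, a mean 4.88 times lower. These changes differed by 2.46 on the log2 scale (SE 0.37, edgeR adjusted p = 0.000331). The value to 2 wks turned to -0.74 (adjusted p = 0.011) with libraries scaled to the total count and to -0.80 (adjusted p = 0.000413) with the trend over GC content of transcripts taken out of each library, while the later fall kept its direction and its call in both. With scaling to the fibroblast markers *Eln* was higher at 2 wks than at E18.5, by 1.501 (adjusted p = 0.00115), and over the whole span its value was 0.11 (adjusted p = 0.787).

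The 2 fibrillins did not keep step with each other. *Fbn1*, the main microfibril protein of mature tissue, was at 415, 512, 354 and 394 CPM at E18.5, 193, 218, 148 and 118 CPM at 2 wks and 206, 88.2, 50.9 and 45.3 CPM at 7 wks. It fell to 2 wks by 1.31 on the log2 scale (SE 0.39, edgeR adjusted p = 0.00987), with no overlap between the ages. The change from 2 to 7 wks was -0.79 (SE 0.39, edgeR adjusted p = 0.147). That value rests on 7 wks replicate 1, the only library of its age within the range of 2 wks: without it the change was -1.46 (edgeR adjusted p = 0.00275).

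*Fbn2*, the fibrillin of developing tissue, had the largest fall of the 10 genes to 2 wks and over the whole span. Its level was 155, 219, 138 and 118 CPM at E18.5, 4.55, 3.66, 4.38 and 4.30 CPM at 2 wks, and 1.46, 0.450, 0.506 and 0.462 CPM at 7 wks. The ages did not overlap in any comparison, and the mean was 37.4 times lower at 2 wks than at E18.5 and 5.86 times lower again at 7 wks. The log2 fold changes were -5.22 (SE 0.35, edgeR adjusted p = 7.87e-08) and -2.58 (SE 0.34, edgeR adjusted p = 0.000167). Without 7 wks replicate 1, which lay apart at 1.46 CPM, the later change was -3.15 (SE 0.24, edgeR adjusted p = 8.38e-06) and the mean 8.93 times lower. At 7 wks the level stood on 28 to 73 reads per library, so counting error adds to the spread there.

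Within a library, the share of *Fbn2* among the reads of the 2 fibrillins does not depend on how libraries are scaled. It lay between 23.1% and 29.99% at E18.5, between 1.65% and 3.52% at 2 wks, and between 0.508% and 1.01% at 7 wks. The log2 ratio of *Fbn2* to *Fbn1* at 2 wks differed by -3.86 from that at E18.5, and in the later interval it changed by a further -1.72. Each of these differences gave p = 0.0286 in a two-sided exact permutation test of 4 mice against 4, the smallest that the 70 regroupings allow, and 0.0429 after Benjamini-Hochberg adjustment over the 15 tests of 5 ratios. The share of *Fbn2* thus fell in both intervals, and 7 wks replicate 1, high in both genes, had a ratio of -7.14 within the range of -7.61 to -6.61 of its age.

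**Figure D2:**
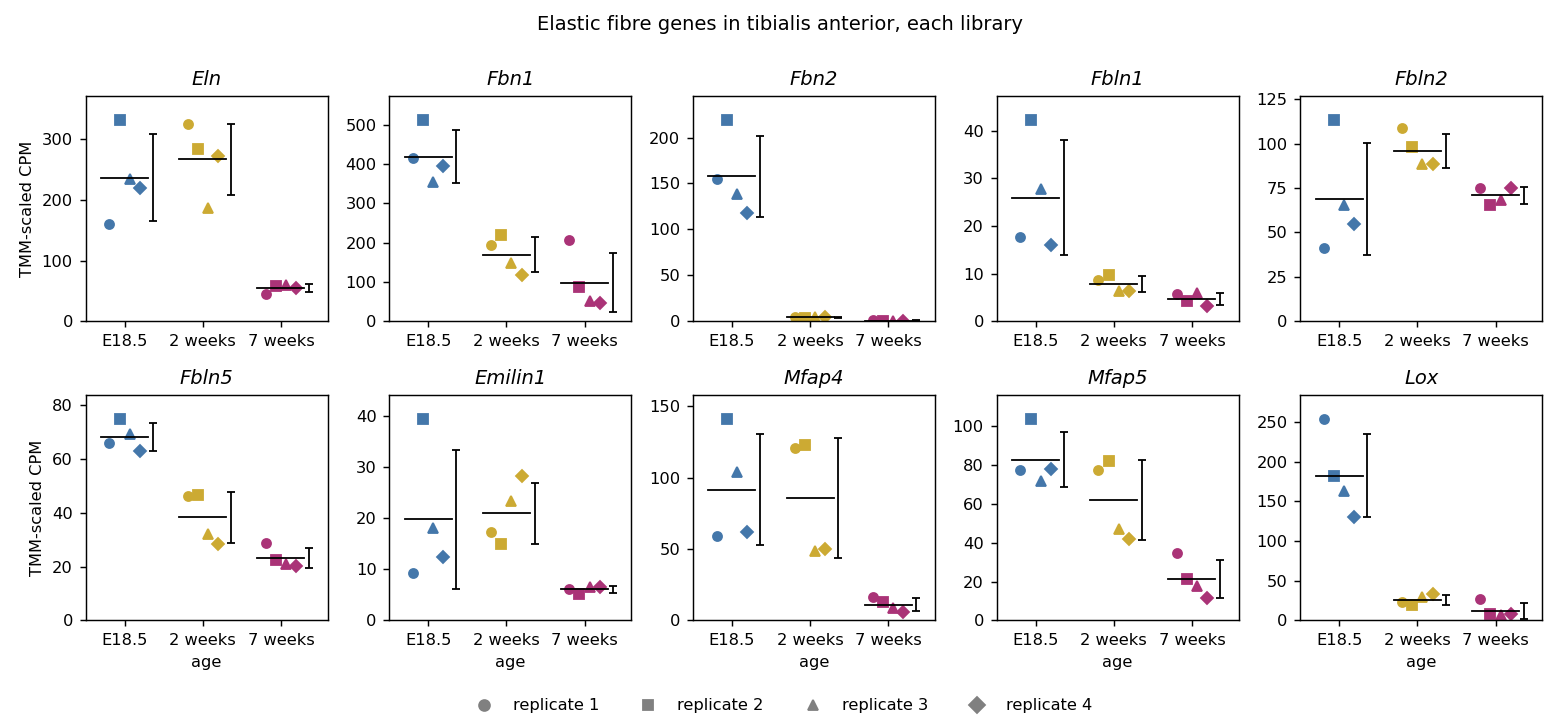
TMM-scaled CPM of each of the 10 genes in the 12 libraries, on axes that start at 0, with a marker shape per replicate number; the line is the mean of the 4 mice of an age and the bar beside it the SD. *Eln* and *Mfap4* stay level from E18.5 to 2 weeks in mean and are low at 7 weeks, *Fbn2* and *Lox* are high only at E18.5, and E18.5 replicate 2 is the highest library of its age in 9 panels.

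The microfibril-associated proteins *Mfap4*, which binds fibrillin and tropoelastin, and *Mfap5*, also known as MAGP2, both fell after 2 wks. *Mfap4* was at 59.5, 141, 104 and 62.2 CPM at E18.5, 121, 123, 48.9 and 49.9 CPM at 2 wks and 16.4, 12.7, 9.02 and 6.12 CPM at 7 wks. The first 2 ages overlapped widely and the libraries of 7 wks lay below all others, with a mean 7.75 times lower than at 2 wks. The log2 fold changes were -0.10 (SE 0.38, edgeR adjusted p = 0.833) and -2.96 (SE 0.42, edgeR adjusted p = 0.00027), and the difference between them was 2.86 (SE 0.64, edgeR adjusted p = 0.00417). With libraries scaled to the fibroblast markers, *Mfap4* was higher at 2 wks than at E18.5, by 1.15 (adjusted p = 0.00428), and *Mfap5* by 0.86 (adjusted p = 0.0105).

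*Mfap5* was at 77.5, 104, 71.8 and 77.9 CPM at E18.5, 77.5, 82.0, 47.1 and 41.9 CPM at 2 wks and 34.7, 21.4, 17.5 and 11.4 CPM at 7 wks. It changed by -0.41 (SE 0.30, edgeR adjusted p = 0.237) and then fell by 1.55 on the log2 scale (SE 0.31, edgeR adjusted p = 0.0026). The difference between the intervals was 1.14 (SE 0.51, edgeR adjusted p = 0.0916), and without 7 wks replicate 1 it passed the test at 1.48 (edgeR adjusted p = 0.0201). Although both genes fell, *Mfap4* fell further: the log2 ratio of *Mfap5* to *Mfap4* was higher by 1.31 at 7 wks than at 2 wks, with no overlap (p = 0.0286 in the exact permutation test, adjusted p = 0.0429). At 7 wks every library held more *Mfap5* than *Mfap4* reads, with log2 ratios of 0.75 to 1.08, and at 2 wks every library held fewer, with -0.64 to -0.05, both without regard to the lengths of the genes. At E18.5 the libraries were split, from -0.53 to 0.38.

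*Emilin1*, a glycoprotein at the interface of elastin and microfibrils, was the least abundant of the 10 genes per length at E18.5. Its level was 9.29, 39.3, 17.9 and 12.3 CPM at E18.5, 17.3, 14.9, 23.3 and 28.2 CPM at 2 wks and 6.06, 5.13, 6.50 and 6.60 CPM at 7 wks. The libraries of E18.5 spanned those of 2 wks, and those of 7 wks were the closest together and the lowest. From 2 to 7 wks it fell by 1.78 on the log2 scale (SE 0.37, edgeR adjusted p = 0.00352). The change to 2 wks was 0.08 (SE 0.36, edgeR adjusted p = 0.846), and its direction depended on the processing: it was 0.67 (adjusted p = 0.0318) without E18.5 replicate 2, -0.87 (adjusted p = 0.0345) with scaling to the total count, -0.78 (adjusted p = 0.0135) with the GC trend removed and 1.54 (adjusted p = 0.00353) with scaling to the fibroblast markers. The difference between the intervals, 1.87 (SE 0.60, edgeR adjusted p = 0.0262), no longer passed without 2 wks replicate 3 (1.76, adjusted p = 0.0669) or without 2 wks replicate 4 (1.52, adjusted p = 0.102), nor with the total count as the scale (1.24, adjusted p = 0.1002) or with the GC trend removed (0.62, adjusted p = 0.282).

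*Fbln5*, which binds tropoelastin and cell-surface integrins and is needed for normal elastic fibre assembly, was at 66.0, 74.8, 69.1 and 62.8 CPM at E18.5, 46.1, 46.6, 32.1 and 28.3 CPM at 2 wks and 28.6, 22.6, 21.0 and 20.4 CPM at 7 wks. It fell in steps of like size, by 0.83 (SE 0.18, edgeR adjusted p = 0.000937) and by 0.73 (SE 0.18, edgeR adjusted p = 0.00867) on the log2 scale, and the difference between the steps was -0.11 (SE 0.31, edgeR adjusted p = 0.802). Its direction turned with scaling to the fibroblast markers, to 0.46 and 0.12, with no call. *Fbln5* also had the smallest spread of the 10 genes at E18.5, an SD of 5.11 CPM around a mean of 68.2 CPM.

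*Fbln1*, a fibulin of elastic fibres and basement membranes, was at 17.7, 42.3, 27.7 and 16.02 CPM at E18.5, 8.76, 9.73, 6.26 and 6.43 CPM at 2 wks and 5.68, 4.22, 5.90 and 3.23 CPM at 7 wks. It fell to 2 wks by 1.73 on the log2 scale (SE 0.30, edgeR adjusted p = 0.000203). From 2 to 7 wks every library was lower, but the change of -0.71 (SE 0.30) gave an edgeR adjusted p of 0.0917. Without E18.5 replicate 2 that change was -0.71 with an adjusted p of 0.042.

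*Fbln2*, which binds fibrillin and elastin and is also found in basement membranes, was the only gene of the 10 at nearly the same mean level at the first and the last age, 68.8 ± 31.4 CPM at E18.5 and 70.9 ± 4.89 CPM at 7 wks (SD, n = 4). Its libraries read 41.3, 113, 65.6 and 55.0 CPM at E18.5, 109, 98.3, 88.6 and 88.4 CPM at 2 wks and 75.1, 65.4, 68.0 and 74.9 CPM at 7 wks. Of the 4 libraries of E18.5, replicate 2 alone lay above all those of 2 wks and the other 3 lay below them. The change to 2 wks was 0.48 (SE 0.24, edgeR adjusted p = 0.0904), and without E18.5 replicate 2 it was 0.83 (edgeR adjusted p = 0.000644). With scaling to the fibroblast markers it was 1.82 (adjusted p = 0.000125). From 2 to 7 wks *Fbln2* changed by -0.44 (SE 0.24, edgeR adjusted p = 0.188). Over the whole span the change of 0.04 (SE 0.24, edgeR adjusted p = 0.883) became -1.24 (adjusted p = 0.000404) with scaling to the total count, -0.41 (adjusted p = 0.0312) with the GC trend removed, 2.24 (adjusted p = 6.26e-06) with scaling to the fibroblast markers and 0.39 (adjusted p = 0.0423) without E18.5 replicate 2. The log2 ratio of *Fbln1* to *Fbln2* within a library lay between -1.78 and -1.22 at E18.5, between -3.82 and -3.34 at 2 wks, and between -4.53 and -3.53 at 7 wks. It changed by -2.23 to 2 wks (exact permutation p = 0.0286, adjusted p = 0.0429) and by -0.29 from 2 to 7 wks (exact permutation p = 0.314, adjusted p = 0.337).

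*Lox* codes for lysyl oxidase, the enzyme that starts the cross-linking of tropoelastin and of fibrillar collagens. Its level was 254, 182, 162 and 130.4 CPM at E18.5, 23.1, 19.2, 29.3 and 33.4 CPM at 2 wks and 26.8, 7.97, 6.20 and 7.55 CPM at 7 wks. All libraries of E18.5 lay above all later ones, and 3 of the 4 libraries of 7 wks lay below 2 wks. It fell to 2 wks by 2.80 on the log2 scale (SE 0.42, edgeR adjusted p = 6.38e-05), a mean 6.94 times lower. The change from 2 to 7 wks was -1.12 (SE 0.40), which did not pass the test (edgeR adjusted p = 0.0533), and without 7 wks replicate 1 it was -1.86 (edgeR adjusted p = 0.000397). DESeq2 called it at -1.12 (adjusted p = 0.0216).

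The transcripts of *Lox* and *Eln* were thus out of step between E18.5 and 2 wks. The log2 ratio of *Lox* to *Eln* reads was 0.67, -0.87, -0.53 and -0.76 at E18.5, -3.82, -3.89, -2.67 and -3.03 at 2 wks and -0.74, -2.89, -3.27 and -2.87 at 7 wks. It changed by -2.98 to 2 wks, with no overlap (exact permutation p = 0.0286, adjusted p = 0.0429). The change of 0.91 from 2 to 7 wks (exact permutation p = 0.229, adjusted p = 0.286) rested in part on 7 wks replicate 1, and was 0.34 without it. *Eln* and *Fbn1*, core and scaffold, also moved apart: their log2 ratio changed by 1.53 to 2 wks and by -1.24 from 2 to 7 wks, each with no overlap and an exact permutation p of 0.0286 (adjusted p = 0.0429). At 7 wks 3 libraries lay above the range of E18.5, and replicate 1 lay below that range, at -2.20. Without that replicate the later change was -0.69.

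**Figure D3:**
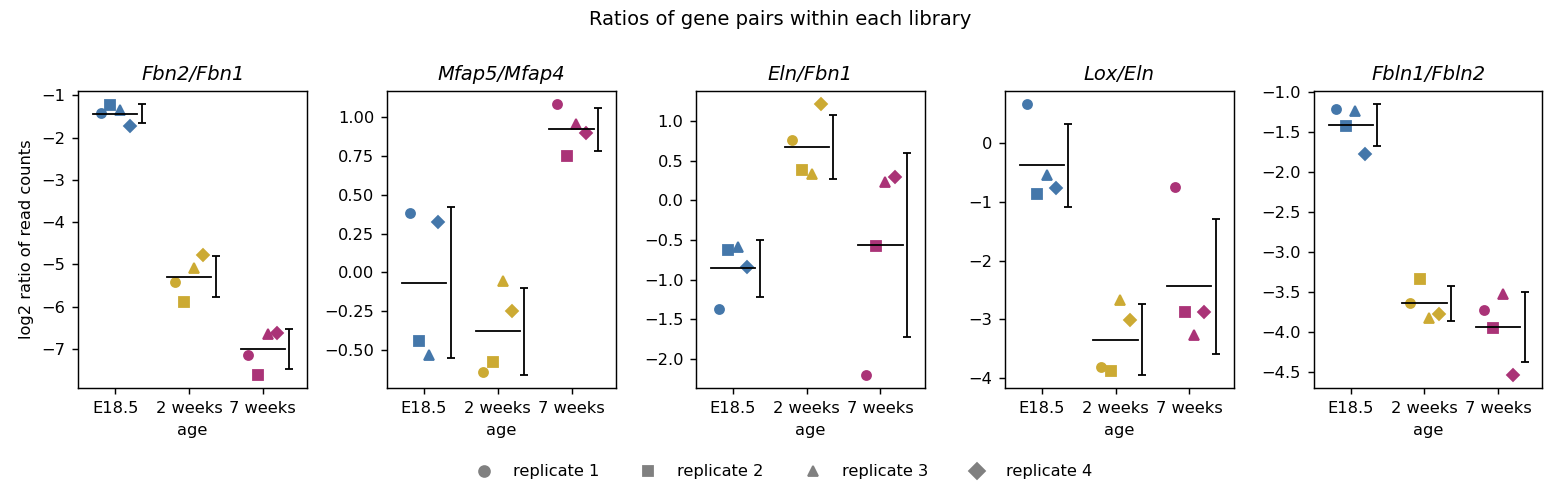
Log2 ratio of the read counts of 5 pairs of genes in each of the 12 libraries, each panel on its own axis; the line is the mean of an age and the bar beside it the SD. *Fbn2*/*Fbn1* steps down at each age, *Eln*/*Fbn1* is highest at 2 weeks, *Mfap5*/*Mfap4* is above 0 in all 4 libraries of 7 weeks, and 7 weeks replicate 1 lies away from its age in *Lox*/*Eln* and *Eln*/*Fbn1*.

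Levels of different genes were compared per kilobase of exon, using the union of annotated exons. At E18.5 the order from high to low was *Mfap4*, *Lox*, *Fbn1*, *Eln*, *Mfap5*, *Fbln2*, *Fbln5*, *Fbn2*, *Fbln1* and *Emilin1*. *Mfap4*, *Lox*, *Fbn1* and *Eln* overlapped in their libraries, from 39.0 ± 16.5 CPM per kb for *Mfap4* to 28.7 ± 8.66 CPM per kb for *Eln*, and stood clear of *Mfap5* at 11.96 ± 2.06 CPM per kb (SD, n = 4). At 2 wks *Mfap4* and *Eln* led, at 36.4 ± 17.8 and 32.4 ± 7.09 CPM per kb, *Lox* had dropped to the sixth place and *Fbn2* to the last, at 0.215 ± 0.0198 CPM per kb. At 7 wks *Fbln2* led with 10.1 ± 0.697 CPM per kb, and *Fbn1* and *Eln* followed, each overlapping with the next. Without 7 wks replicate 1 *Eln*, at 7.02 CPM per kb, came before *Fbn1*, at 5.07 CPM per kb. With the length of the canonical transcript in place of the exon union, a choice made after seeing the data, *Eln* led at E18.5 and at 2 wks, and *Fbln2* again at 7 wks.

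The 10 genes also varied among mice of 1 age. E18.5 replicate 2 was the highest of its age for 9 of the 10 genes, all but *Lox*. The same library held 22.2 CPM of *Krt1*, a keratin of the epidermis, where the other 3 held 0.204 to 3.07 CPM. It held 73.0 CPM of *Col2a1*, the collagen of cartilage, where the others held 2.78 to 7.38 CPM. Of the other cartilage and bone markers, *Acan*, *Matn1*, *Ibsp* and *Bglap* were also highest there. *Sox9* was higher in replicate 3, at 3.98 against 2.91 CPM, and *Runx2* was level with replicate 1, at 2.27 CPM. The library also had the highest muscle fibre and smooth muscle sums of its age, 20718 and 417 CPM. Its summed fibrillar collagens were 12881 CPM, against 6043 CPM in the lowest library of that age, and its fibroblast markers lay within the range of the age. Their part in the high values of the elastic fibre genes was not tested.

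At 7 wks replicate 1 was the highest for 7 of the 10 genes, *Fbn1*, *Fbn2*, *Fbln2*, *Fbln5*, *Mfap4*, *Mfap5* and *Lox*, and the lowest for *Eln*. Its fibroblast markers summed to 264 CPM, where the other 3 libraries held 106.6 to 151 CPM, its fibrillar collagens to 3608 CPM, against 817 CPM in the lowest library, and its tendon markers to 459 CPM, against 150.2 CPM in the lowest. Without both libraries that stood apart, a choice made after seeing the data, 7 of the 10 genes were called to 2 wks, 9 from 2 to 7 wks, 9 over the whole span and 6 for the difference between the intervals. Of the 19553 genes then tested, 13011, 5053, 13809 and 7629 were called in that order. The added calls among the 10 genes included *Fbn1*, *Fbln1* and *Lox* as lower from 2 to 7 wks and *Fbln2* and *Emilin1* as higher at 2 wks than at E18.5.

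At 2 wks the libraries lay in pairs for several genes, and over the whole count table as well. Chi-square per degree of freedom, larger the more 2 libraries differ, was 34.3 for replicates 1 and 2 and 133.8 for replicates 3 and 4. Between the pairs it was 176.8 to 366.4. The share of all genes split as these genes were was not counted. Replicates 1 and 2 were above replicates 3 and 4 for *Eln*, *Fbn1*, *Fbln1*, *Fbln2*, *Fbln5*, *Mfap4* and *Mfap5*, and below them for *Emilin1* and *Lox*. For *Eln* the gap was small, with 285 CPM in replicate 2 and 272 CPM in replicate 4. The smooth muscle actin *Acta2* was at 681 and 508 CPM in replicates 1 and 2 and at 177 and 190.3 CPM in replicates 3 and 4, while the tendon gene *Thbs4* was at 20.3 and 21.7 CPM and at 159 and 216 CPM. Of the 5 smooth muscle markers *Acta2* alone was split in that direction without overlap: *Myh11* was at 91.2 and 65.2 CPM in replicates 1 and 2 and at 83.1 and 104.7 CPM in replicates 3 and 4. The 5 markers summed to 837 and 632 CPM against 316 and 378 CPM, and the 5 tendon markers to 54.1 and 64.7 CPM against 339.8 and 368 CPM. Whether these markers and the elastic fibre genes shared a source was not tested. The 4 libraries are of 1 group by their labels and were kept together.

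**Figure D4:**
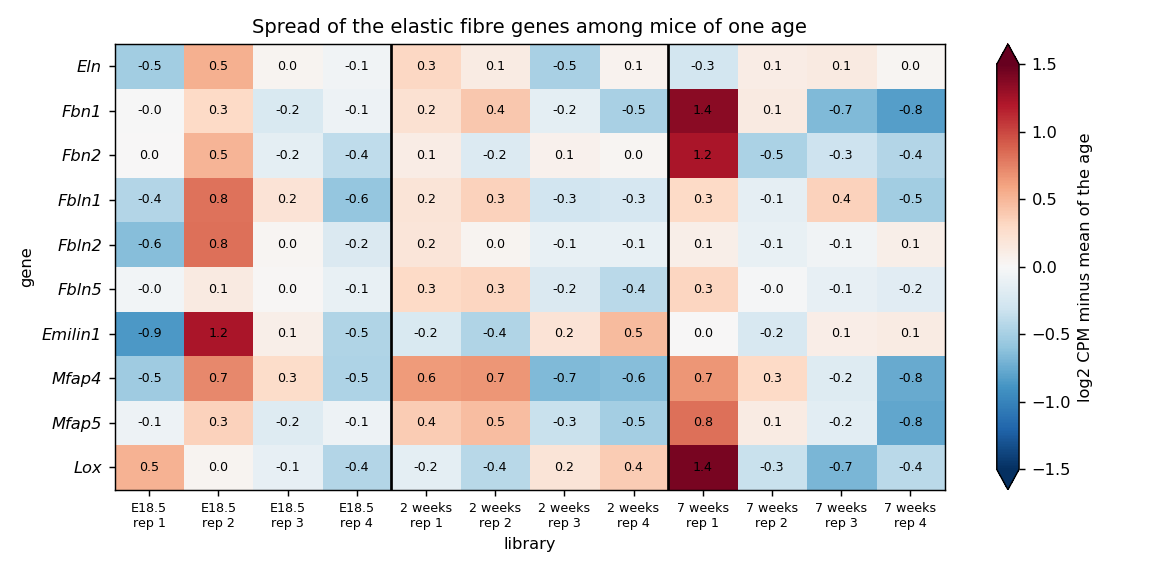
Log2 CPM of each of the 10 genes in each library minus the mean of the 4 libraries of its age, printed in the cells and coloured from blue (below the mean) to red (above). The column of E18.5 replicate 2 is at or above 0 in every row, that of 7 weeks replicate 1 holds 1.4 for both *Fbn1* and *Lox*, and *Fbln2* has its widest spread at E18.5.

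The genes of other fibroblast products give a frame for these values. Over all genes, 31.5% were called higher and 34.2% lower to 2 wks, and 13.9% lower from 2 to 7 wks. Of the 8 fibroblast markers, *Pi16* was higher at 2 wks than at E18.5 and 6 others were lower, with a median of -1.42 on the log2 scale, and 2 were lower and none higher from 2 to 7 wks, with a median of -0.67. Of 7 fibrillar collagen genes, 3 were lower to 2 wks and 6 from 2 to 7 wks, with medians of -0.83 and -1.41. The medians of the 10 elastic fibre genes, -0.62 and -1.33, thus lay nearer to those of the collagens than to those of the markers in both intervals, a description and not a test. The 5 smooth muscle markers, from cells that make the elastin of vessel walls, were higher for 2 and lower for 1 to 2 wks, and lower for 1 from 2 to 7 wks.

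A further 31 genes of elastic fibres and microfibrils, relatives of the 10 and genes of fibre assembly, were all tested. At 2 wks 10 were higher than at E18.5 (31.5% of all genes were) and 13 lower (34.2% of all), and from 2 to 7 wks 14 were lower (13.9% of all) and none higher, with medians of -0.21 and -0.73 on the log2 scale. At an unadjusted p below 0.05 edgeR had 1 of them higher from 2 to 7 wks, *Tgfb3*, and DESeq2 had 0. Over the whole span 7 were higher (34.3% of all genes) and 18 lower (37.1%), with a median of -0.82. The difference between the intervals passed the test for 21 (38.4% of all genes), of which 15 had the more negative change in the later interval (21.6%).

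Those with the largest early rises were *Adamtsl5*, a fibrillin-binding ADAMTS-like protein, *Hmcn2*, a hemicentin of the fibulin family, and *Ltbp4*, a latent TGF-beta binding protein that works with fibulin-5 in elastogenesis. *Ltbp4* went from 11.7, 54.9, 21.4 and 17.5 CPM at E18.5 to 208, 185, 157 and 187 CPM at 2 wks and 70.2, 82.0, 118 and 104 CPM at 7 wks. Its log2 fold change to 2 wks was 2.80 (SE 0.39, edgeR adjusted p = 3.01e-05), that of *Adamtsl5* 3.34 (SE 0.29, edgeR adjusted p = 7.61e-07) and that of *Hmcn2* 2.82 (SE 0.31, edgeR adjusted p = 4.34e-06). *Adamtsl5*, *Hmcn2* and *Ltbp4* were also those with the largest rises over the whole span, of 3.45, 1.95 and 1.83.

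The largest early falls were those of *Ltbp2*, at -3.78 (SE 0.30, edgeR adjusted p = 2.98e-07), *Emilin3*, at -3.22 (SE 0.35, edgeR adjusted p = 4.68e-06), and *Thsd4*, at -2.63 (SE 0.23, edgeR adjusted p = 6.64e-07). *Ltbp2* belongs by name to the family of latent TGF-beta binding proteins and binds fibulin-5, and *Thsd4* is an ADAMTS-like protein that binds fibrillin-1. After 2 wks the largest falls were those of *Adamts17*, at -4.06 (SE 0.43, edgeR adjusted p = 3.72e-05), *Mfap2*, the other MAGP, at -2.94 (SE 0.47, edgeR adjusted p = 0.000637), and again *Emilin3*, at -2.13 (SE 0.38, edgeR adjusted p = 0.00149). Over the whole span *Emilin3*, *Ltbp2* and *Adamts17* had the largest falls, at -5.35, -4.80 and -4.27. At 7 wks these stood on few reads per library, 13 to 19 for *Emilin3*, 21 to 43 for *Ltbp2* and 14 to 39 for *Adamts17*. *Mfap2* had a course like that of *Mfap4*, with -0.52 to 2 wks (edgeR adjusted p = 0.293), and its CPM lay between 11.2 and 61.2 at E18.5, between 14.4 and 27.1 at 2 wks, and between 1.99 and 3.63 at 7 wks.

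Within the families of the 10 genes the members differed. Of the lysyl oxidases, *Loxl1*, which acts on elastin, rose by 1.01 to 2 wks (edgeR adjusted p = 0.00601), where *Lox* fell, and then fell by 1.63 (edgeR adjusted p = 0.00129). *Loxl2* fell by 1.43 (edgeR adjusted p = 0.000393) and by 1.09 (edgeR adjusted p = 0.00958), *Loxl3* changed by 0.11 (edgeR adjusted p = 0.685) and fell by 1.06 (edgeR adjusted p = 0.00613), and *Loxl4* passed in neither interval. Among the fibulins, *Efemp1* (fibulin-3) fell by 1.85 to 2 wks (edgeR adjusted p = 0.00129), *Efemp2* (fibulin-4), which brings lysyl oxidase to tropoelastin, fell by 1.36 after 2 wks (edgeR adjusted p = 0.00637), and *Fbln7* rose by 1.64 to 2 wks (edgeR adjusted p = 0.000225). *Emilin2* fell by 2.00 to 2 wks (edgeR adjusted p = 0.00101), where *Emilin1* was not called. Of the other members of the Ltbp family, *Ltbp1* fell by 1.07 (edgeR adjusted p = 5.54e-05) and *Ltbp3* rose by 0.74 (edgeR adjusted p = 0.00445) to 2 wks, and neither passed the test after it.

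**Figure D5:**
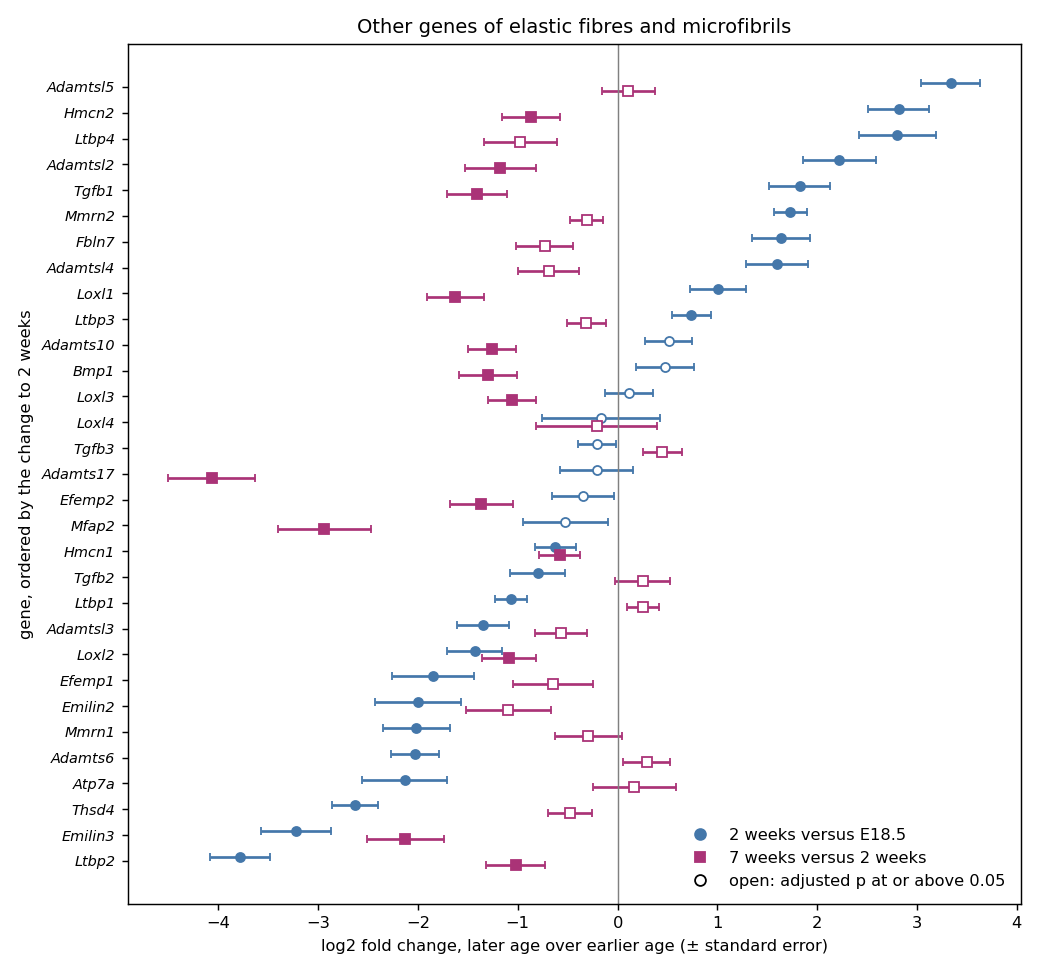
Log2 fold change, with its standard error, of the 31 further genes of elastic fibres and microfibrils, ordered by the change to 2 weeks. Circles are 2 weeks versus E18.5 and squares 7 weeks versus 2 weeks, filled where the edgeR adjusted p was below 0.05: filled circles lie on both sides of 0, and all 14 filled squares lie below it.

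Of 7 genes of enzymes that can cleave elastin, 6 had enough counts to be tested, *Elane* being the exception. At 2 wks versus E18.5 *Ctsk*, *Ctss* and *Mmp9* were lower and *Ctsl* and *Mmp12* higher, where 34.2% of all genes were lower and 31.5% higher, and from 2 to 7 wks *Mmp9* alone passed the test, as lower by 1.90 on the log2 scale (edgeR adjusted p = 0.00821), where 27.5% of all genes passed. *Mmp12*, the elastase of macrophages, stood on 0 to 34 reads per library, so its fold change is not given. *Ctsk* fell by 1.06 (edgeR adjusted p = 0.00195) and *Ctsl* rose by 0.45 (edgeR adjusted p = 0.00548). The CPM of the 7 genes summed to between 255 and 353 at E18.5, 253 and 351 at 2 wks, and 219 and 281 at 7 wks, ranges that overlapped between all ages. *Ctsl* and *Mmp2* made up most of each sum, so it does not show the courses of the other genes.

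For each of the 10 genes, those with the most similar levels over the 12 libraries were found by Pearson correlation of log2 CPM among 10951 genes. The 12 libraries share 3 ages, so any gene that moves with age scores high, and the values are descriptions. *Fbn1* was closest to *Fndc1* (r = 0.994), *Fn1* (0.989), the gene of fibronectin, on which fibrillin assembles, and *Axl* (0.986). *Mfap5* was closest to *Col3a1* (0.982), *Leprot* (0.980) and *Pdgfrl* (0.980). *Fbln5* was closest to *Matn2* (0.995), *Galnt16* (0.991) and *Col6a6* (0.990), and *Lox* to *Frem1* (0.988), *Ccn4* (0.987) and *Blm* (0.987). *Eln* was closest to *Fblim1* (0.974), *Ralb* (0.974) and *Lmnb2* (0.971), and *Mfap4* to *Tspan11* (0.980), *Dbn1* (0.979) and *Afap1l2* (0.976). *Fbn2* was closest to *Rtl3*, *Spats2* and *Ncam1*, each at 0.994 to 0.995, *Fbln1* to *Sulf2* (0.983), *Adam33* (0.983) and *Tpsb2* (0.979), *Fbln2* to *Osbpl5* (0.970), *Ctif* (0.968) and *Vasn* (0.964), and *Emilin1* to *Cul7* (0.964), *Piezo1* (0.962) and *Dchs1* (0.956). No 2 of the 10 genes shared a gene among these closest.

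On GRCm39 (GENCODE vM39), *Eln* (ENSMUSG00000029675) lies on chromosome 5 from 134731445 to 134776322 and *Emilin1* (ENSMUSG00000029163) on the same chromosome from 31070717 to 31078622. *Fbn1* (ENSMUSG00000027204) lies on chromosome 2 from 125142514 to 125349913, *Fbln1* (ENSMUSG00000006369) on chromosome 15 from 85090150 to 85170737, *Fbln5* (ENSMUSG00000021186) on chromosome 12 from 101712556 to 101785429 and *Mfap4* (ENSMUSG00000042436) on chromosome 11 from 61376212 to 61379727. *Fbln2* (ENSMUSG00000064080) and *Mfap5* (ENSMUSG00000030116) are both on chromosome 6, from 91189437 to 91249522 and from 122470878 to 122508875, and *Fbn2* (ENSMUSG00000024598) and *Lox* (ENSMUSG00000024529) are both on chromosome 18. Exons of *Eln*, *Fbn1*, *Fbn2*, *Mfap4* and *Lox* overlap exons of a gene on the opposite strand, *Gm30003*, *Gm9913*, *Gm41741*, *Mapk7* and *Gm41724* in that order. The library kit marks strand, but the strand setting of the counting is not given in the sources used here, so the share of reads from these partners is uncertain.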

How the data were processed

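Poly(A) RNA of TA muscles was sequenced by the authors as stranded paired-end reads, 4 WT mice at each of 3 ages. The processing notes name bcl2fastq 2.17.1.14, cutadapt 1.10, STAR 2.5.3a and HTSeq 0.6.1p1, with build mm10; the methods name GRCm39. The values deposited are unnormalized read counts of Ensembl genes, and all 12 columns were used. The counts carry no transcript level, so the authors' transcript-level test could not be repeated.

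For testing, TMM scaling and edgeR 4.0.16 were used (quasi-likelihood, with limma 3.58.1 under R 4.3.3); the 12 libraries entered 1 fit whose only term was age. Low counts were removed with filterByExpr, which kept 19276 genes, all 10 members among them, and dropped 36174. The Benjamini-Hochberg adjustment ran over all genes tested, with a threshold of 0.05. CPM were computed with the TMM factors, which lay between 1.62 and 1.77 at E18.5, between 0.810 and 0.946 at 2 wks, and between 0.667 and 0.699 at 7 wks. Each elastic fibre gene had at least 28 counts per library. Ratios were tested by two-sided exact permutation over 70 regroupings. The procedure was tested on simulated counts. No library was a copy of another: chi-square per degree of freedom was between 34.3 and 577 over the 18 pairs of 1 age. The labels give replicate numbers and the paper 4 mice per age, so replicates were taken as separate animals.

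The members and the gene lists were chosen with earlier results of these data known. Named are the 10 members, their family members, the 3 further genes with the largest rises and falls past the threshold in each comparison, the 3 genes closest to each member (mean log2 CPM 2 or more) and genes of the marker lists. Alternatives were scaling to the total count, to the upper quartile and to 8 fibroblast markers, a replicate block, DESeq2 1.42.0, no filter, a minimum of 10 counts per library, only the libraries compared, a log2 fold change beyond 1 (glmTreat), leaving out the 20 most abundant and the 37 mitochondrial genes, removal of GC and length trends, and each library left out in turn. Leaving out both libraries that stood apart, and canonical transcript lengths, were added after seeing the data. Gene positions come from GENCODE vM39. Promoter windows come from RefSeq and were used for *Fbn1*, *Fbln1*, *Fbln2*, *Fbln5* and *Emilin1*, with windows on chromosome 18 left out. Figures were drawn with matplotlib 3.10.9 under Python 3.11.15.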

Additional observations from a re-analysis of the deposited data

Results flagged for a closer look

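In sets of 4 mice of 1 age, a library was marked when its gap to the nearest other, divided by the range of the 4, was above Dixon's 95% critical value for 4 samples. Of 45 sets, the 10 genes and 5 ratios at 3 ages, 3 were marked, where chance marks about 2.25. All 3 were in 7 wks replicate 1. *Fbn2* was at 1.46 CPM there, with the other 3 libraries at 0.450 to 0.506 CPM. *Lox* was at 26.8 CPM, with the others at 6.20 to 7.97 CPM. The log2 ratio of *Lox* to *Eln* was -0.74, with the others at -3.27 to -2.87. The same library had the highest fibroblast, fibrillar collagen and tendon marker sums of its age, 264, 3608 and 459 CPM, and their part in these values was not tested.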

How the results depend on the processing

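Of the results recomputed under each alternative, 1227 stayed the same, 43 gained a call and 15 lost one. A further 9 counts moved by over 1.5 times, and 14 changes turned direction where at least 1 of the fits compared called them. Staying the same meant the same side of the threshold for fold changes and within 1.5 times for counts. For log2 ratios it meant a shift below the larger SD of the ages compared. Of the 1227, 32 fold changes called in neither fit changed sign, 12 of them with 1 library left out. With scaling to the total count, 9 of the 10 genes were called to 2 wks, 10 from 2 to 7 wks, and 22 of the 31 further genes from 2 to 7 wks. Of all 19276 genes, 14473 were then called to 2 wks and 6340 from 2 to 7 wks. When a log2 fold change beyond 1 was required, 3 of the 10 genes were called in each interval, and 3 of the 31 from 2 to 7 wks and 13 for the difference between the intervals. Of all genes, 5507 were then called to 2 wks, 561 from 2 to 7 wks and 2463 for the difference. With scaling to the fibroblast markers, 4 of the 10 genes were called over the whole span and 7 of the 31 from 2 to 7 wks, 4 of them higher. Of all genes, 15985 were then called over the whole span and 8515 from 2 to 7 wks, 7876 of the latter higher.

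With a call in at least 1 fit, those that turned were *Eln* (-0.74 by total count, -0.80 with the GC trend removed) and *Emilin1* (-0.87 and -0.78) to 2 wks, and *Fbln2* (-1.24 and -0.41) over the whole span. With fibroblast scaling *Fbln5* turned in all 3 comparisons, at 0.46, 0.12 and 0.58, *Mfap4* (1.15) and *Mfap5* (0.86) to 2 wks, and *Eln* (0.11), *Emilin1* (0.53) and *Mfap5* (0.060) over the whole span. These scalings also moved the median of all genes, and the cause was not tested. The changes without a call that took the other sign when 1 library was left out were those of *Emilin1* (to -0.15) and *Mfap4* (to 0.19) to 2 wks, of *Fbln2* over the whole span (to -0.14) and the differences between the intervals of *Fbn1* (to 0.16) and *Fbln5* (to 0.14). With the GC trend removed *Fbln2* (-0.26) and *Mfap5* (0.08) to 2 wks and the differences of *Fbln2* (-0.11) and *Fbln5* (0.32) did so.

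With each library left out in turn, 5 to 7 of the 10 genes were called to 2 wks, 6 to 8 from 2 to 7 wks, 9 to 10 over the whole span and 3 to 5 for the difference. Of the 31 further genes it was 22 to 25, 10 to 16, 23 to 26 and 17 to 22. Of the 19494 to 19937 genes tested in these fits it was 11810 to 13199, 3472 to 6145, 13244 to 13928 and 5273 to 8297.

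Deviations from the age means correlated at -0.30 to 0.55 over 12 pairs with the same replicate number, with a median of -0.004. Over 36 pairs with different numbers they correlated at -0.53 to 0.41, with a median of 0.013. Of 12 libraries, 6 correlated best with their own number, so these values do not settle whether replicate numbers pair the libraries. With the replicate block, *Fbn1* (-0.97) and *Lox* (-1.37) were also called from 2 to 7 wks and *Mfap5* for the difference between the intervals (1.09), and no other call changed for the 10 genes. Depth limits *Fbn2* most among the 10 genes, at 28 to 73 reads per library at 7 wks, and *Emilin3*, *Adamts17* and *Ltbp2* among the further genes, at 13 to 43 reads. Mice of different ages are the comparison itself, so handling that went with age cannot be told apart from it.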
